A study of Mus musculus with 21 samples.

Results

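The genes described here encode the LIM-only protein Lmo2 and 7 proteins known to assemble with it or with its relative Lmo4, namely Lmo4, Ldb1, Ssbp2, Ssbp3, Ssbp4, Lyl1 and Tal1. They were chosen by symbol, and each of the 8 symbols matched 1 of the 55421 genes measured by QuantSeq 3′ mRNA sequencing in 15 libraries. Peaks whose nearest gene was one of the 8 were taken from a list of 5898 Zbtb1 peaks and a list of 6077 Cbfa2t3 peaks. Lmo2 and Lmo4 do not bind DNA. Each carries LIM domains that hold other proteins together: Ldb1 binds the LIM domains and pairs with itself, so that distant sites can be brought together, the single-stranded DNA-binding proteins Ssbp2, Ssbp3 and Ssbp4 bind Ldb1 and protect it from degradation, and the bHLH factors Tal1 and Lyl1, joined to an E protein, give contact with the E box. Complexes of this kind are best known from erythroid cells, blood stem cells and T-cell leukemia.

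The cells were *Ebf1*-deficient lymphoid progenitors (LPs) of the C57BL6/J strain, a cell line grown on OP9 stromal cells with SCF, IL-7 and Flt3L, without Notch stimulation. All cells used for RNA carried Cas9-GFP from a retrovirus and received a second retrovirus with a pool of 2 sgRNAs, against luciferase in sgControl and against the named gene in sgLmo2, sgZbtb1, sgCbfa2t2 and sgCbfa2t3. GFP+hNGFR+ cells were sorted 5 days later, with 3 biological replicates of each of the 5 conditions. The sort was on the vector markers and not on the edit, and the edited alleles were not analysed here. ChIP-seq of unedited LPs was done on 2 replicates for each factor and deposited as 1 list of reproducible peaks per factor.

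Values are given as in the deposited table, which calls them TPM. They are reads counted at transcript 3′ ends and scaled to the library total (CPM), and are not divided by length, so levels of different genes can be set side by side on this scale, apart from differences in how well each 3′ end is captured. The libraries held 1705417 to 2095448 recovered reads, 1 read was worth 0.477 to 0.586 TPM, and 3 reads, the floor used here for counting error only, 1.43 to 1.76 TPM. The summed TPM of 10 lymphoid progenitor markers was 1115 to 1260 in every library. *Ptprc*, *Flt3*, *Il7r*, *Dntt* and *Cd93* were at 50.9 TPM or more in each library. *Kit* was at 6.87 to 25.4 TPM, *Rag1* at 0.956 to 4.52, and the B-lineage markers *Cd79a*, *Vpreb1* and *Igll1* at 0 to 4.91. Sums were 1.47 to 11.3 TPM for 8 OP9 stromal markers, 0 to 3.35 for 5 erythroid markers, 3.83 to 30.3 for 5 myeloid markers and 0 to 5.79 for 5 T-cell markers. *Col3a1*, *Lum*, *Dcn*, *Hba-a1*, *Hbb-bs*, *Elane* and *Cd8a* were at 0 in all 15 libraries. Fewer cells of a type and less RNA per cell cannot be told apart in such bulk libraries. By condition, the T-cell sum was 2.35 to 5.79 TPM in sgControl and 0 to 3.29 in sgLmo2, which overlapped. It was lower than in sgControl without overlap in sgZbtb1 (0.478 to 1.68), sgCbfa2t2 (1.431 to 1.596) and sgCbfa2t3 (1.07 to 2.21). Of the 11554 genes tested below, 22.9%, 13.7% and 15.8% had no overlap in these comparisons. The T-cell sums rest on few reads, near or under the floor in sgZbtb1 and sgCbfa2t2. Of the 5 T-cell markers 1, *Tcf7*, had a mean above 1 TPM. The myeloid sum was 15.1 to 17.0 TPM in sgControl. It was 3.83 to 11.3 in sgLmo2 and 17.7 to 21.4 in sgCbfa2t3, without overlap with sgControl, as for 10.6% and 15.8% of those genes. In sgZbtb1 (8.61 to 22.9) and sgCbfa2t2 (11.1 to 30.3) the myeloid sum overlapped with sgControl. The part of these markers in the results was not tested.

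All 8 genes had a mean above 1 TPM over the 15 libraries and entered the limma fit of 11554 genes on log2(TPM + 1), in which Benjamini-Hochberg adjusted p-values cover all of these genes. Of the 8, *Lyl1* (ENSMUSG00000034041, GRCm38 chr8:84701457-84704715) rose and *Lmo4* (ENSMUSG00000028266, chr3:144188530-144205220) fell in sgZbtb1 relative to sgControl, against 4.79% of all genes called in that comparison. None of the 8 passed in sgLmo2, where 0.0173% of all genes were called, in sgCbfa2t2, where 0.147% were called, or in sgCbfa2t3, where 0.537% were called. With an unadjusted p under 0.05 the limma counts were 0 of 8 in sgLmo2, 1 in sgCbfa2t2 and 2 in sgCbfa2t3, beside 5.65%, 9.56% and 10.6% of all genes, and edgeR and DESeq2 on the recovered reads also gave no member an adjusted p under 0.05 in these 3 comparisons. The median log2 difference of the 8 from sgControl was -0.017 for sgZbtb1, 0.022 for sgCbfa2t3, 0.115 for sgCbfa2t2 and 0.027 for sgLmo2, beside -0.028, -0.01, 0.005 and 0.013 for all genes tested. Without *Tal1*, which had few reads, the medians in the same order were -0.168, 0.055, 0.103 and 0.012. Since the 4 comparisons share the 3 sgControl libraries, their values are not independent of each other.

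**Figure D1:**
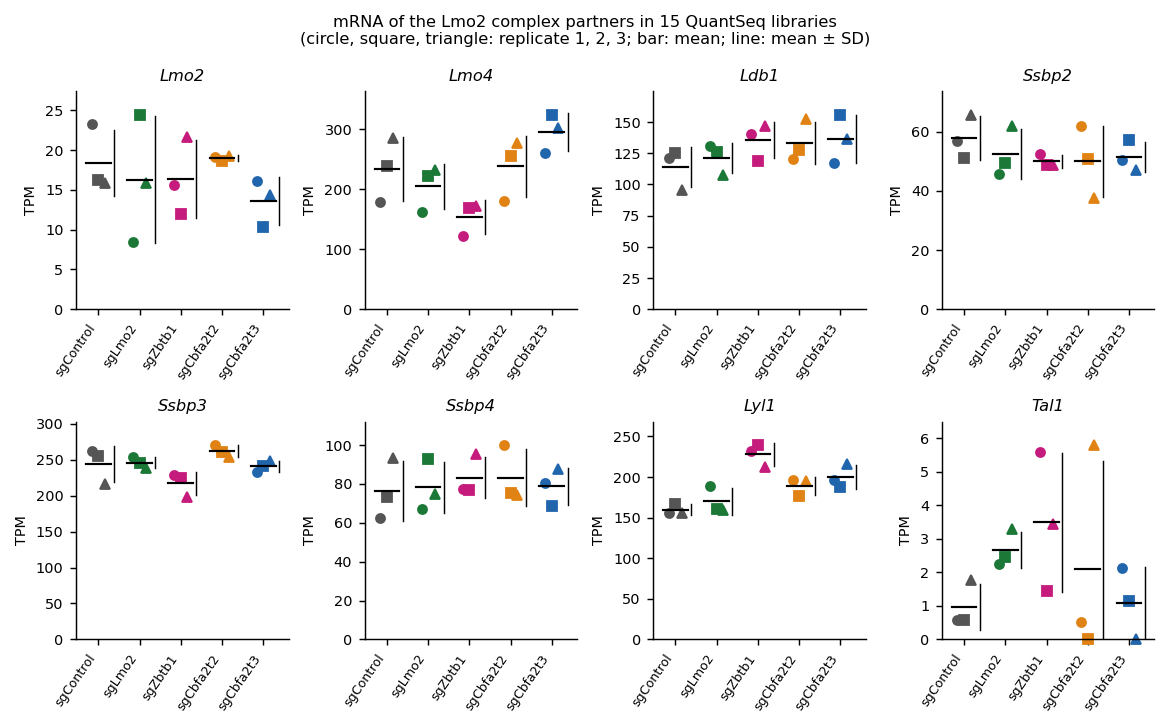
TPM of the 8 genes in each of the 15 libraries, grouped by condition, with the mean as a bar and the mean ± SD (n = 3) as a line on axes that start at 0. *Lyl1* in the 3 sgZbtb1 libraries lies above every other library but 1 sgCbfa2t3 library, which at 216 TPM exceeds the lowest sgZbtb1 value of 213, and replicate 1 of *Lmo4* is the lowest of its condition in all 5 conditions.

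*Lmo2*, the targeted bridging factor, was expressed at a low level. It measured 23.2, 16.2 and 15.8 TPM in sgControl, 15.6, 12 and 21.6 with sgZbtb1, 16.1, 10.3 and 14.4 with sgCbfa2t3, 19.2, 18.6 and 19.3 with sgCbfa2t2 and 8.48, 24.4 and 15.9 with sgLmo2, from 15 to 50 reads a library. The lowest and the highest of the 15 values were both in sgLmo2, and no other library lay outside their range. The sgLmo2 mean was 16.3 ± 7.99 TPM (SD, n = 3) against 18.4 ± 4.17 in sgControl, a log2 difference of -0.26 ± 0.32 (SE) with a 95% interval of -0.89 to 0.37 and a limma adjusted p of 0.956. With 1 library left out it ran from -0.597 without sgLmo2 replicate 2 to 0.115 without sgLmo2 replicate 1, so that its sign rests on the latter library. A read at the 3′ end does not show whether the coding part was cut, so these values do not check the sgLmo2 label. The order of the means was sgCbfa2t2, sgControl, sgZbtb1, sgLmo2 and sgCbfa2t3, and no pair among the 5 conditions passed the test.

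*Lmo4*, the other LIM-only gene of the set, was far more abundant. Its level was 7.70 to 31.6 times that of *Lmo2* in the same library, with a median of 14.4 over the 15 libraries. It measured 179, 238 and 286 TPM in sgControl, 122, 168 and 173 with sgZbtb1, 261, 324 and 302 with sgCbfa2t3, 181, 256 and 278 with sgCbfa2t2 and 162, 222 and 232 with sgLmo2. The sgZbtb1 libraries all lay below the sgControl libraries, by a narrow margin of 173 against 179 TPM, and those of sgZbtb1 and sgCbfa2t3 were far apart. Means were 234 ± 53.5 TPM in sgControl and 154 ± 28.3 in sgZbtb1 (SD, n = 3), and *Lmo4* fell by 0.59 ± 0.13 on the log2 scale (SE, limma adjusted p = 0.00285). The exact two-sided permutation test gave 0.1, the smallest p that 3 libraries against 3 allow. This call was lost in DESeq2 (adjusted p = 0.102), when all genes above 0 were fitted (0.0925), without sgControl replicate 3 (0.0964) and without sgZbtb1 replicate 1 (0.0807), with a fall in every one of these fits. Replicate 1 was the lowest of its condition in all 5 conditions for *Lmo4*, which was true of no other gene of the set.

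In sgCbfa2t3 the mean of *Lmo4* was 296 ± 32 TPM, a log2 difference of 0.36 ± 0.13 from sgControl that did not pass (adjusted p = 0.297). With 1 library left out it ran from 0.174 without sgControl replicate 1 to 0.51 without sgControl replicate 3, and it passed in none of these fits. The targeting conditions were also compared with each other, in 6 pairs. *Lmo4* was lower in sgZbtb1 than in sgCbfa2t3, with a log2 difference of -0.95 ± 0.13 (adjusted p = 1.37e-06), where 1.13% of all genes were called, and this call held in every alternative and with any of the 6 libraries left out. It was also lower in sgZbtb1 than in sgCbfa2t2 (-0.62 ± 0.13, adjusted p = 0.00248, 2.27% of all genes called) and higher in sgCbfa2t3 than in sgLmo2 (0.54 ± 0.13, adjusted p = 0.0297, 0.736% of all genes called). Without sgZbtb1 replicate 1 or sgCbfa2t2 replicate 3 the first of these 2 had adjusted p-values of 0.0964 and 0.0552, and the second was lost without sgLmo2 replicate 1 (0.292), sgCbfa2t3 replicate 2 (0.218) or sgCbfa2t3 replicate 3 (0.0946). Both were also lost in DESeq2 (0.134 and 0.323) and when all genes above 0 were fitted (0.125 and 0.341), and the second with a pseudocount of 0.1 (0.0677). Against sgLmo2, *Lmo4* in sgZbtb1 differed by -0.41 ± 0.13 (adjusted p = 0.0594). This passed with the 6 libraries alone (0.0301) and with a replicate block (0.0036), and did not in DESeq2 (0.389) or with all genes above 0 (0.31). With 1 library left out it ran from -0.57 to -0.249 (adjusted p = 0.0073 to 0.413). The order of the means was sgCbfa2t3, sgCbfa2t2, sgControl, sgLmo2 and sgZbtb1, and no neighbours in that order differed past the threshold when all 15 libraries were fitted without a block.

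*Ldb1*, the partner that links LIM-only proteins into larger assemblies, measured 121, 126 and 95.6 TPM in sgControl, 140.2, 119 and 147 with sgZbtb1, 117, 156 and 136 with sgCbfa2t3, 120.3, 127 and 153 with sgCbfa2t2 and 131, 126 and 108 with sgLmo2. Each of the 4 targeting conditions had a mean above that of sgControl, with log2 differences of 0.09 to 0.25, and each overlapped with it. Without sgControl replicate 3, the lowest of the 15 values, these became -0.027 with sgLmo2, 0.126 with sgZbtb1, 0.104 with sgCbfa2t2 and 0.132 with sgCbfa2t3. None of the 10 comparisons passed for *Ldb1*, and the 95% interval of the widest difference, sgCbfa2t3 against sgControl, ran from -0.005 to 0.51. The ratio of *Lmo4* to *Ldb1* was 0.869 to 2.99 over the 15 libraries, with both ends set by a single library of sgZbtb1 and of sgControl.

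Among the genes for the Ldb1-binding Ssbp proteins, *Ssbp3* was the most abundant and took 57.6% to 69.4% of the summed reads of the 3 genes in each library, with a median of 64.0%. *Ssbp4* took 16.4% to 27.8% and *Ssbp2* 10.3% to 17.5%. *Ssbp3* measured 262, 255 and 216 TPM in sgControl, 229, 224 and 198 with sgZbtb1, 233, 241 and 248 with sgCbfa2t3, 270.4, 261 and 254 with sgCbfa2t2 and 253, 245 and 238 with sgLmo2. The sgZbtb1 libraries lay below those of sgLmo2, sgCbfa2t2 and sgCbfa2t3 without overlap, as was the case for 21.8%, 17.9% and 14.6% of all genes, and overlapped with sgControl. The widest difference for *Ssbp3*, sgZbtb1 against sgCbfa2t2, was -0.27 ± 0.10 on the log2 scale and did not pass (adjusted p = 0.160). *Ssbp2* measured 56.9, 50.9 and 65.7 TPM in sgControl, 52.5, 48.8 and 48.6 with sgZbtb1, 50.4, 57.1 and 47.1 with sgCbfa2t3, 61.7, 50.6 and 37.7 with sgCbfa2t2 and 45.8, 49.4 and 61.9 with sgLmo2. *Ssbp4* measured 62.7, 73.5 and 93.2 TPM in sgControl, 77.7, 77 and 95.3 with sgZbtb1, 80.4, 68.5 and 87.5 with sgCbfa2t3, 100.1, 75.4 and 74.4 with sgCbfa2t2 and 67.3, 92.9 and 75.1 with sgLmo2. For *Ssbp2* and *Ssbp4* the conditions overlapped in all 10 comparisons and none passed. The summed TPM of the 3 *Ssbp* genes was 379 ± 3.52 in sgControl, 350.3 ± 8.53 with sgZbtb1, 371 ± 10.4 with sgCbfa2t3, 395 ± 34.0 with sgCbfa2t2 and 376 ± 10.7 with sgLmo2 (SD, n = 3), sums that were not tested.

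Of the bHLH genes, *Tal1* was near the floor and *Lyl1* was not. *Tal1* had 1, 1 and 3 reads in sgControl, 10, 3 and 7 with sgZbtb1, 4, 2 and 0 with sgCbfa2t3, 1, 0 and 12 with sgCbfa2t2, and 4, 5 and 6 with sgLmo2. In 8 of the 15 libraries it was at or under 3 reads, so its fitted fold changes, which are plotted with the others, rest on few reads. No comparison passed for *Tal1*. Its sgLmo2 libraries did not overlap with those of sgControl, as was the case for 10.6% of all genes tested. *Lyl1*, which encodes the close relative of Tal1, had 265 to 501 reads a library. Markers of the erythroid lineage, in which Tal1 is a core factor, were likewise at or near 0, with *Gata1* at 0 in 12 libraries.

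*Lyl1* measured 156, 167 and 155 TPM in sgControl, 232, 239.5 and 213 with sgZbtb1, 196, 188 and 216 with sgCbfa2t3, 197, 176 and 195 with sgCbfa2t2 and 189, 161 and 160.0 with sgLmo2. The 3 sgZbtb1 libraries lay above all libraries of sgControl, sgLmo2 and sgCbfa2t2, comparisons in which 22.9%, 21.8% and 17.9% of all genes had no overlap. Relative to sgControl, the mean rose from 159.6 ± 6.63 to 228 ± 13.9 TPM (SD, n = 3), a log2 difference of 0.51 ± 0.11 (SE, limma adjusted p = 0.000943). The exact permutation p was again 0.1. This call held in 8 of 8 other settings of the fit or tool, with adjusted p-values of 0.000193 to 0.00449, and with any 1 library left out, at 0.00199 to 0.0134. The libraries of sgCbfa2t2 and sgCbfa2t3 also lay above those of sgControl without overlap, with log2 differences of 0.24 ± 0.11 (adjusted p = 0.461) and 0.32 ± 0.11 (adjusted p = 0.197), neither of which passed. The share of all genes with no overlap was 13.7% in sgCbfa2t2 and 15.8% in sgCbfa2t3. *Lyl1* and *Lmo4* were the members without overlap in sgZbtb1, and *Lyl1* alone in each of the other two.

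The order of the *Lyl1* means was sgZbtb1, sgCbfa2t3, sgCbfa2t2, sgLmo2 and sgControl, and no neighbours differed past the threshold. In the pairs of targeting conditions, *Lyl1* was higher in sgZbtb1 than in sgLmo2 by 0.42 ± 0.11 on the log2 scale (adjusted p = 0.00745), with 5.06% of all genes called, and this was lost without sgLmo2 replicate 2 (0.0576), sgLmo2 replicate 3 (0.0632) or sgZbtb1 replicate 2 (0.0541). It was not called against sgCbfa2t2 (0.27 ± 0.11, adjusted p = 0.221) or sgCbfa2t3 (0.19 ± 0.11, adjusted p = 0.595). No member was called between sgCbfa2t3 and sgCbfa2t2, where 0.0779% of all genes were, or between sgCbfa2t2 and sgLmo2, where 0.234% were. The unadjusted limma counts under 0.05 there were 1 and 0 of 8, beside 6.2% and 7.07% of all genes, and edgeR and DESeq2 called no member in either.

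**Figure D2:**
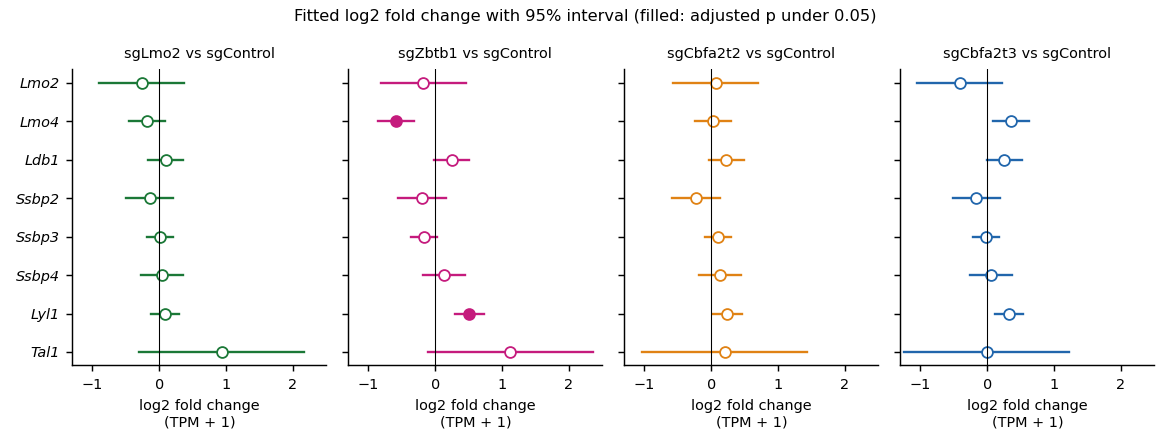
Fitted log2 fold change of each gene against sgControl (point) with its 95% interval (line), on log2(TPM + 1), in 1 panel for each sgRNA. Filled points, *Lyl1* at 0.51 and *Lmo4* at -0.59 in sgZbtb1, have an adjusted p under 0.05, and the intervals of *Tal1*, which was at or under 3 reads in 8 libraries, are the widest.

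The whole of *Lyl1*, its 3′ end included, lies inside the annotated span of *Nfix*, which is read from the other strand. *Nfix* was at 97.4 to 146 TPM, with means of 115 in sgControl and 131 in sgZbtb1. The library kit marks strand, but whether the counting used it is not given in the sources used here, so reads of the pair cannot be told apart with certainty, and the part of *Nfix* in the *Lyl1* values was not tested. The genes opposite the ends of *Lmo2* (*4931422A03Rik*) and *Ssbp2* (*4833422C13Rik*) had at most 0.488 TPM. Over the 15 libraries, the protein-coding genes with a mean of at least 10 TPM whose log2(TPM + 1) followed *Lyl1* most closely were *Nop58* (Pearson r = 0.90), which encodes a core protein of box C/D snoRNPs, *Pa2g4* (r = 0.88) and *Fam49b* (r = 0.88), out of 7959 compared. Those that followed *Lmo4* were *Dgkd* (0.89), a diacylglycerol kinase, *Id2* (0.88), an inhibitor of E proteins, and *Lcmt2* (0.88). Mean *Id2* was 157 TPM in sgControl, 104 in sgZbtb1 and 221 in sgCbfa2t3. Among the other members above 10 TPM, r with *Lyl1* ran from -0.43 for *Ssbp2* to 0.48 for *Ldb1*, and *Lyl1* and *Lmo4* had r = -0.38. These values describe 15 libraries that share conditions, and for *Lmo4* the replicate number as well.

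A wider list of 30 genes, which holds other LIM-only, LIM-homeodomain, Ldb and bHLH genes, E-protein, GATA, Runx, ETS and Gfi factors, Sp1, Zbtb1, the ubiquitin ligase Rlim, the Cbfa2t corepressors, and histone demethylases and deacetylases with their partner Rcor1, gave 22 genes with enough signal to test. *Lmo3*, *Ldb2*, *Tal2*, *Gata2*, *Runx1t1* and *Isl1* were at 0 in all 15 libraries, *Gata1* and *Lhx2* were below 1 TPM on average, and *Lmo1* averaged 2.06 TPM. In sgZbtb1, limma called 1 of the 22 higher, the targeted gene itself, and 2 lower, beside 4.79% of all genes called. *Zbtb1* itself was at 62.7, 66.6 and 55.7 TPM in sgControl and 94.4, 113 and 109 in sgZbtb1, a rise of 0.77 ± 0.16 on the log2 scale (adjusted p = 0.00102). *Runx1*, the Runx factor that guides many blood genes, was at 334, 324 and 303 in sgControl and 178, 186 and 175 in sgZbtb1, with no overlap, and fell by 0.83 ± 0.10 (adjusted p = 3.28e-09). *Kdm5a*, a histone H3K4 demethylase, was at 196, 237 and 252 in sgControl and 172, 179.8 and 182 in sgZbtb1 and fell by 0.35 ± 0.11 (adjusted p = 0.0461), a call that 5 of 8 other settings did not give. Of the fits without 1 library, it was kept without sgControl replicate 1 and lost without any of the other 5, with adjusted p-values up to 0.240. *Erg*, an ETS factor named after its values were seen, was at 18, 9.84 and 16.4 TPM in sgControl and 46.9, 22 and 21.1 in sgZbtb1 without overlap, a log2 difference of 0.92 ± 0.31 that did not pass in limma (adjusted p = 0.0703) or DESeq2 (0.069) and passed in edgeR (0.035) and with the 6 libraries alone (0.0411). With 1 library left out it passed in 0 of 6 fits and ran from 0.559, without sgZbtb1 replicate 1, to 1.117 (adjusted p = 0.0622 to 0.459).

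In sgCbfa2t3, where 0.537% of all genes were called, 1 of the 22 rose, again the targeted gene, and 1 fell. *Cbfa2t3* rose from 209.6, 189 and 172 to 340.5, 344 and 364 TPM (0.88 ± 0.11, adjusted p = 1.67e-07), and *Kdm5a*, at 149, 190.1 and 171, fell by 0.42 ± 0.11 (adjusted p = 0.0498), a call absent from 5 of 8 other settings and kept only without sgControl replicate 1 or sgCbfa2t3 replicate 2 among the fits that left out 1 library. No gene of the list passed in sgCbfa2t2 or sgLmo2 in limma, where 7 and 2 of 22 had an unadjusted p under 0.05, beside 9.56% and 5.65% of all genes. edgeR gave none in either, and DESeq2 gave none in sgCbfa2t2 and 1 in sgLmo2, *Tcf4* (-0.51, adjusted p = 0.0215). *Tcf4* encodes an E protein and was named after its values were seen. The call was given by 2 of 8 other settings. With 1 library left out it passed in 0 of 6 fits (adjusted p = 0.0886 to 0.617). Under every targeting sgRNA the *Tcf4* libraries lay below those of sgControl without overlap. The limma log2 differences ran from -0.49 (sgLmo2) to -0.31 (sgZbtb1), and none passed. Between sgLmo2 and each other targeting condition *Tcf4* overlapped and did not pass. *Cbfa2t2* was at 11, 12.2 and 12.3 TPM in sgControl and 25.5, 23.9 and 16.4 in sgCbfa2t2 (0.82 ± 0.33, adjusted p = 0.412). As for *Lmo2*, reads at the 3′ end do not check an edit in the coding part, and none of the 4 targeted mRNAs was lower than in sgControl past the threshold. At the protein level, the study reports immunoblots of GFP+hNGFR+ cells with loss of Lmo2, Zbtb1 and Cbfa2t3 under their sgRNAs, which were not analysed here. The median log2 difference of the 22 genes was -0.061 in sgZbtb1, -0.026 in sgLmo2, -0.016 in sgCbfa2t2 and 0.005 in sgCbfa2t3.

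**Figure D3:**
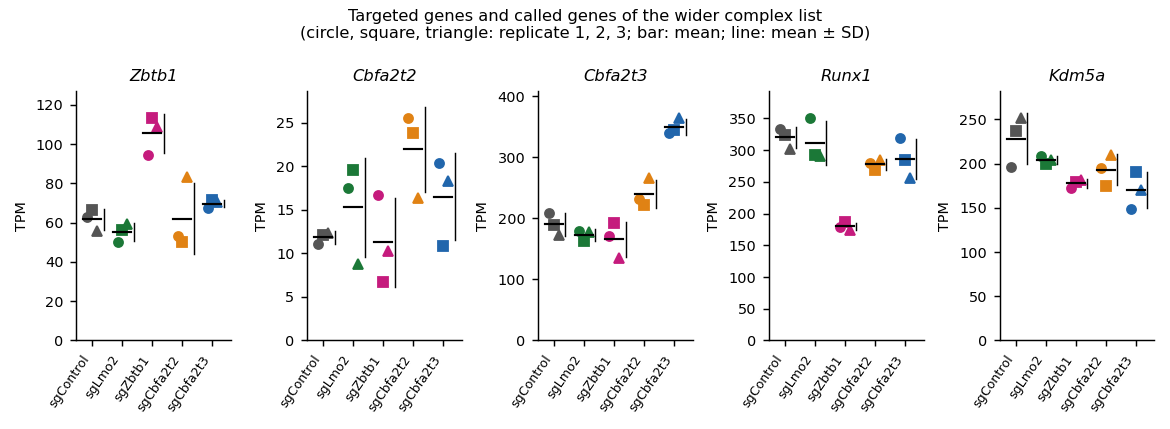
TPM of the targeted genes *Zbtb1*, *Cbfa2t2* and *Cbfa2t3* and of *Runx1* and *Kdm5a* in each library, with the mean as a bar and the mean ± SD (n = 3) as a line. *Zbtb1* is highest in sgZbtb1 and *Cbfa2t3* in sgCbfa2t3, and the 3 sgZbtb1 libraries of *Runx1*, at 175 to 186 TPM, lie below all 12 others.

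ChIP-seq adds where Zbtb1, a BTB zinc finger protein, and Cbfa2t3, a corepressor of the ETO family, were found near these genes in unedited cells. By the gene name in the lists, 7 Cbfa2t3 peaks and 6 Zbtb1 peaks had a member as nearest gene. Of these, 5 Cbfa2t3 peaks and 3 Zbtb1 peaks belonged to *Lyl1*, *Ssbp4* had 1 of each, *Ssbp2* had 1 Cbfa2t3 peak, and *Lmo2* and *Lmo4* had 1 Zbtb1 peak each. Among genes with a Cbfa2t3 peak 2.56% had 5 or more, and among genes with a Zbtb1 peak 5.57% had 3 or more. The gene name was blank for 7.01% of Cbfa2t3 and 7.85% of Zbtb1 peaks. Filling these blanks from the transcript identifier in the same row added 4 Cbfa2t3 peaks and 1 Zbtb1 peak at *Ssbp3* and 3 Zbtb1 peaks at *Ssbp2*, so that the totals became 11 and 10. *Ldb1* and *Tal1* had no peak by either route. Among all peaks, 24.4% of the Cbfa2t3 list overlapped the Zbtb1 list. Neither list gives read depth or values per replicate, so no test between factors was made.

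At *Lyl1*, on mm10, the highest score was that of the Cbfa2t3 peak at chr8:84699921-84700299, centred at -1347 bases from the start site and past the annotated end of *Trmt1*. Its score of 166 ranked 190 of 6077. The next Cbfa2t3 peak, at chr8:84701156-84701534, covered the *Lyl1* promoter with a score of 76.4, centred at -112 bases. The strongest Zbtb1 peak of the locus, at chr8:84703347-84703717, lay in intron 3 of *Lyl1* with a score of 77.7 and a rank of 757 of 5898. A second, at chr8:84706604-84706974 with a score of 39.1, lay past *Lyl1*, in exon 11 of 11 of 1 *Nfix* transcript by the annotation in the list. Cbfa2t3 peaks at the promoter and the Zbtb1 peak in the intron did not overlap. The remaining peaks lay in introns of *Nfix* by the annotation in the list, at +21591, +23413 and +36370 bases from the *Lyl1* start, with Cbfa2t3 scores of 39.3, 80.1 and 44.2. In GENCODE vM21, *Lyl1* was the nearest coding start only for the Cbfa2t3 peak at the promoter and the Zbtb1 peak in intron 3. It was *Trmt1* for the Cbfa2t3 peak with the score of 166, at 929 bases and with the peak centre in an *Nfix* exon. For the Zbtb1 peak with the score of 39.1 it was *Nfix*, at 927 bases. For the peaks in *Nfix* introns it was *G430095P16Rik*, and the Cbfa2t3 peak at +21591 was centred 41 bases from that start, in an exon of that gene. The assignment of these peaks to *Lyl1* thus rests on the annotation used. The Cbfa2t3 peak at chr8:84737638-84738016 overlapped a Zbtb1 peak at chr8:84737698-84738068 with a score of 16.2, and was the only site assigned to *Lyl1* in both lists.

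**Figure D4:**
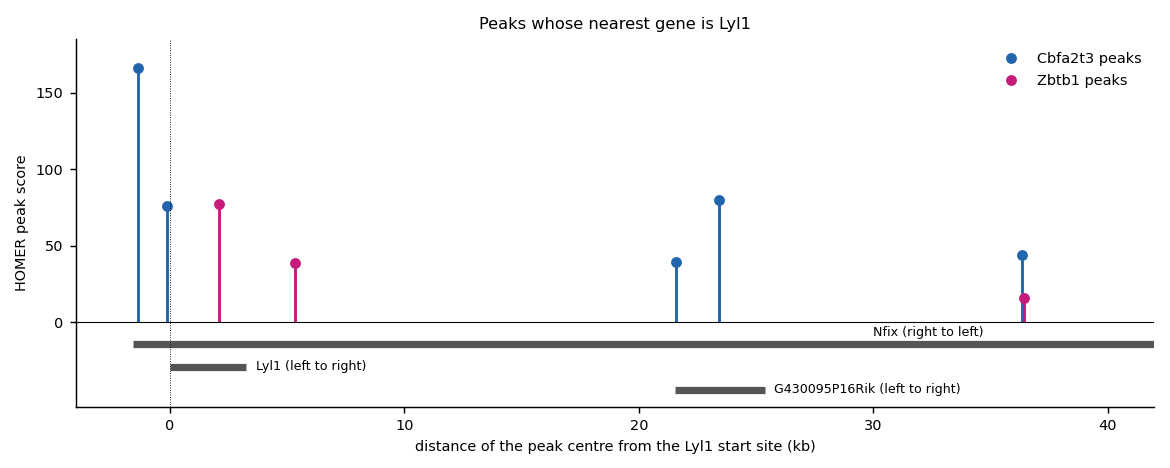
HOMER peak score of each peak assigned to *Lyl1* against the distance of its centre from the *Lyl1* start site in kb, for Cbfa2t3 and Zbtb1, with gene spans drawn below. The 2 Cbfa2t3 peaks next to the start, with scores of 166 and 76.4, lie before it and the nearest Zbtb1 peak, at 77.7, lies after it.

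The sequences under these *Lyl1* peaks are shown as the 200 bases around the peak centre on the plus strand of GRCm38, because the same gene had peaks of both factors at different places. Capitals mark matches to the Runx motif TGTGGT and the E box CANNTG on either strand.
Cbfa2t3 peak before *Lyl1* (chr8:84700011-84700210): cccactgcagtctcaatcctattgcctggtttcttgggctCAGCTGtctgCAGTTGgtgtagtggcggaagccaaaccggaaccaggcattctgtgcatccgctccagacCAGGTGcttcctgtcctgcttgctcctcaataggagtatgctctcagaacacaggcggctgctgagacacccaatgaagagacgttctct
Cbfa2t3 peak at the *Lyl1* promoter (chr8:84701246-84701445): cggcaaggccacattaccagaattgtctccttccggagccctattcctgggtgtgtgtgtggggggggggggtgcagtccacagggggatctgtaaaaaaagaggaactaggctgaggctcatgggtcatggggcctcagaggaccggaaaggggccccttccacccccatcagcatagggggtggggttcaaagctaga
Zbtb1 peak in *Lyl1* intron 3 (chr8:84703433-84703632): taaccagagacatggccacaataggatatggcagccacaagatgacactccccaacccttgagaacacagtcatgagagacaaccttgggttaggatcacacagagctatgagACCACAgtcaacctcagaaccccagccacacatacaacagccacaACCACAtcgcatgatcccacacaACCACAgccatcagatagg
Cbfa2t3 peak also in the Zbtb1 list, *Nfix* intron (chr8:84737728-84737927): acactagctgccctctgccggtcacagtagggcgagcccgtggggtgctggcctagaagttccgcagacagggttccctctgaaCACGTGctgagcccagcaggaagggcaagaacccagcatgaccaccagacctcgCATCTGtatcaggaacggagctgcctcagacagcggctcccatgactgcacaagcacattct
The window before *Lyl1* held 3 E boxes and no Runx motif, the promoter window neither, and the window of the intron 3 Zbtb1 peak 3 Runx motifs and no E box. The *Nfix* intron window held 2 E boxes and 1 match to TGGTGGT.

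At *Lmo4*, a Zbtb1 peak at chr3:144202363-144202733 was centred at -152 bases from an annotated start within the gene, with a score of 20.1 that ranked 4316 of 5898. The *Lmo2* peak, Zbtb1 at chr2:103982878-103983248 with a score of 39.2, was intergenic in the list and 1185 bases past the end of the gene, inside the span of *4931422A03Rik*. In *Ssbp2*, a Cbfa2t3 peak in intron 3 at chr13:91541068-91541446 with a score of 63.2 overlapped a Zbtb1 peak at chr13:91540987-91541357 with a score of 16.7, the latter among those with a blank name. These windows are shown in the same way, since they are the sites at the called gene *Lmo4*, at the targeted gene and at the second site in both lists.
Zbtb1 peak at *Lmo4* (chr3:144202449-144202648): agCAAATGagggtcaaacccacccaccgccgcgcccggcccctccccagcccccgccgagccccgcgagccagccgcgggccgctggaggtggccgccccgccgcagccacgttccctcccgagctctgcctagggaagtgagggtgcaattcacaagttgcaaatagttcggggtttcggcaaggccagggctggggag
Zbtb1 peak past *Lmo2* (chr2:103982964-103983163): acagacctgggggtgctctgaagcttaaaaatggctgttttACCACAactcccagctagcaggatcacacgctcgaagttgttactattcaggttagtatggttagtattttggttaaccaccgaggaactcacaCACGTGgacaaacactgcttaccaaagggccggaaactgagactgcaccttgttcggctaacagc
Cbfa2t3 peak in *Ssbp2* (chr13:91541158-91541357): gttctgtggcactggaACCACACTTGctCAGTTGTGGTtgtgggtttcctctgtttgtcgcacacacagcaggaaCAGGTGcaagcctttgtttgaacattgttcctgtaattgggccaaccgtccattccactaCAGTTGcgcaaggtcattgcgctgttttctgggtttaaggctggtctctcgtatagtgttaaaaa
The *Ssbp2* window held 2 Runx motifs and 4 E boxes, and the joined capitals are a Runx motif of each orientation with overlapping E boxes. The *Lmo2* window held 1 of each, and the *Lmo4* window, with 70.5% G and C, held 1 E box.

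*Ssbp4* had a Cbfa2t3 peak at chr8:70609349-70609727 (score 32.7) and a Zbtb1 peak at chr8:70610982-70611352 (score 26.3), both before the gene and not overlapping. The 4 Cbfa2t3 peaks in *Ssbp3* were all in its first intron by the annotation in the list, with scores of 21.9 to 33.0, and its Zbtb1 peak, at chr4:106927161-106927531 with a score of 28.2, lay on a TGG repeat with 13 matches to TGGTGGT. Median scores were 33.2 over all Cbfa2t3 peaks and 28.0 over all Zbtb1 peaks. With blanks filled, the E box was found in 9 of 11 Cbfa2t3 windows and 8 of 10 Zbtb1 windows, beside 89.3% and 53.6% of all windows in the same lists. The Runx motif was found in 5 of 11 and 6 of 10, beside 43.7% and 41.3%, TGGTGGT in 1 and 3, beside 7.0% and 15.8%, and GATAA in 1 and 0, beside 13.1% and 9.8%. The composite of CTG followed after 7 to 9 bases by GATA, known from erythroid Lmo2 complexes, was in 0 of 11 and 0 of 10, beside 4.6% and 2.7%. Motifs were searched on both strands, GATAA overlaps with the composite, and a match is only a description of the letters. The windows of the 2 shared sites overlap between the lists, so these counts are not independent.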

How the data were processed

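QuantSeq libraries (FWD kit, single reads of 75 nt) and ChIP-seq peak lists were analysed by the condition in the sample labels. For QuantSeq, the authors trimmed reads with fastp, mapped them to mm10 with STAR and deposited values called TPM, which the values show to be CPM: within each library they are whole multiples of 1 step, and 100% of values from 1 to 500 reads came out within 0.1 of a whole read. Of 55422 rows, 1 had no gene identifier and was left out. limma 3.58.1 (R 4.3.3: lmFit, eBayes with a trend, all 15 libraries, no block) was run on log2(TPM + 1) for genes with a mean above 1. A fold change on this scale understates that of low genes. On simulated data for 11554 genes, 75% of 200 genes changed 2-fold were recovered in sgZbtb1 against sgControl, with 5 unchanged genes called. The 200 were drawn from genes with a mean above 10 TPM, and the simulated spread followed the trend over genes alone. This recovery thus does not apply to low genes such as *Tal1* or to changes smaller than 2-fold. edgeR 4.0.16 and DESeq2 1.42.0 used the recovered reads, and edgeR called 561 genes in sgZbtb1 against sgControl beside 554 in limma. In the ChIP-seq lists, the authors deposited HOMER peaks reproducible over 2 replicates with a normalized peak score of at least 15, after mapping to mm10 with Bowtie 1.1.1. Their nearest genes, per the file headers, come from annotatePeaks. Sequences were read from GRCm38 with pysam 0.24.0, and gene spans from GENCODE vM21. An overlap was 1 bp or more. The 8 genes, the wider list and the marker lists were chosen with earlier results of these data known. Genes named beyond the 8 are the targeted genes, list members called against sgControl, and the 3 genes most like each member called against sgControl, beside markers, genes overlapping or near a member or its peaks, list genes at or near 0, and *Erg* and *Tcf4*, which were named after their values were seen. Alternatives were another pseudocount, filters, scaling, tools, samples and thresholds. Protein sequences and the protein-level experiments of the study were not analysed here.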

Additional observations from a re-analysis of the deposited data

How the results depend on the processing

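*Lyl1* in sgZbtb1 against sgControl and *Lmo4* in sgZbtb1 against sgCbfa2t3 kept direction and call in all 8 other settings and with each library left out. In the other 3 comparisons in which *Lmo4* was called the direction held but calls were lost. In sgZbtb1 against sgControl the log2 difference was -0.591 with all genes above 0 fitted and -0.582 in DESeq2, both not called, and -0.772 to -0.43 with 1 library left out. Against sgCbfa2t2 it was -0.617 and -0.595 in the same 2 settings, and -0.802 to -0.456. In sgCbfa2t3 against sgLmo2 it was 0.538 with a pseudocount of 0.1, 0.536 with all genes above 0 and 0.553 in DESeq2, and 0.376 to 0.632. *Lyl1* in sgZbtb1 against sgLmo2 ran from 0.383 to 0.504. Of 416 alternative values for members that were not called against sgControl, 28 changed sign and stayed short of the threshold.

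The cause of these losses was not tested. Members called in sgZbtb1 against sgControl numbered 1 with all genes above 0, 1 in DESeq2, 0 under the study's thresholds (unadjusted p under 0.05, log2 change above 1, mean above 10 TPM) and 1 to 2 with 1 library left out. Against sgLmo2 they numbered 2 with the 6 libraries alone and 0 to 2 with 1 left out, and against sgCbfa2t2 0 with all genes above 0, 0 in DESeq2 and 0 to 1 with 1 left out. In sgCbfa2t3 against sgLmo2 they numbered 0 with the other pseudocount, 0 with all genes above 0, 0 in DESeq2 and 0 to 1 with 1 left out. Of the wider list, 1 gene was called in sgLmo2 by DESeq2. In sgZbtb1 there were 0 under the study's thresholds. In sgCbfa2t3 there were 0 under those thresholds, 1 each with the other pseudocount, all genes above 0, the 6 libraries alone, size factors or edgeR, and 1 to 2 with 1 library left out. Peaks near members numbered 3 for Cbfa2t3 within 10 kb of the start, 3 for Zbtb1 at a score of at least 30, and 11 and 10 with blank names filled. The alternatives for the wider list, some of those between targeting conditions and the filled names were chosen after seeing the data.

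Over all genes tested, libraries with the same replicate number deviated together only weakly (mean r = 0.0279 over 30 pairs, from -0.0072 to 0.0656). Deviations were taken from condition means, so the mean of -0.0139 over 60 pairs with different numbers is tied to this value and is no separate baseline. The numbers were not taken to pair the samples. With a replicate block, members called in sgZbtb1 against sgLmo2 rose from 1 to 2, *Lmo4* being added (-0.41, adjusted p = 0.0036). The wider list rose in sgLmo2 from 0 to 1 (*Tcf4*, adjusted p = 0.0225) and in sgZbtb1 from 3 to 4 (*Erg*, adjusted p = 0.043). For *Lmo4*, lowest in replicate 1 in all 5 conditions, the limma adjusted p in sgZbtb1 against sgControl was 1.04e-05 with the block and 0.00285 without. *Tal1* was at or under 3 reads in 8 libraries, and the part of depth in its lack of calls was not tested.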
